A study of Rattus norvegicus with 20 samples.

Results

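The 90 genes described here are the Wnt, Fgf, Bmp and Tgfb signalling genes of the rat: those whose symbol begins with Wnt, Fzd, Sfrp, Dkk, Fgf, Bmp, Tgfb, Acvr or Smad. They were chosen by name and not by their values, out of 14217 named genes. A gene was read from 1 probe set, the one with the highest mean signal over all arrays, although the 90 genes had 141 probe sets between them. RNA was measured on 20 arrays of olfactory and respiratory nasal epithelium, which had been collected by hand from the septum and turbinates of untreated adult Sprague Dawley rats without genetic modification. Males gave 6 olfactory and 6 respiratory arrays and females 2 olfactory and 6 respiratory ones, from 13 animals in all, 7 of them with both tissues. The males were aged 11, 13 or 14 weeks, the 2 females of the olfactory group 13 and 14 weeks, and those of the respiratory group 11, 13 or 14 weeks. All were killed by an overdose of ketamine, and the tissue was kept in RNA Later.

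Wnt proteins are secreted lipid-bound ligands that act through Frizzled receptors, either on beta-catenin and the TCF/LEF factors or on cell polarity, and Sfrp and Dkk proteins are secreted modulators of that pathway. Most fibroblast growth factors bind receptor tyrosine kinases together with heparan sulphate, and a small intracellular subfamily instead binds voltage-gated sodium channels. Bone morphogenetic proteins, activins and transforming growth factor beta bind paired serine/threonine kinase receptors that phosphorylate Smad proteins. In the nose these pathways are known for patterning the olfactory placode and, in the adult, for the renewal of olfactory neurons from basal cells. Respiratory epithelium, by contrast, is a ciliated and secretory lining over its own basal cells and a collagen-rich lamina propria.

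To show the regulatory sequence of members that lay at opposite ends of the tissue comparison, 6 upstream regions are printed, each the 250 bases before the annotated start in the gene's own direction. They are RefSeq sequences of the GRCr8 assembly, and 70 of the 90 genes had an entry, with 74 starts in all. Fgf12, Fzd8, Fzd1, Wnt4 and Fgfr2 are shown as examples of both directions, and Fgf12 has 2 annotated starts. They were not picked strictly by size. Fgfbp1, Wnt10a, Fgf1, Tgfbi, Tgfb1, Sfrp5 and Wnt5a also had an entry and differed by more than Fzd8, Wnt5a only barely (-1.2593 against 1.259). Of these, Fgfbp1, Fgf1, Tgfb1, Sfrp5 and Wnt5a had no match to either motif marked below. Capitals mark matches to CCCNNGGG, the core of the motif of the olfactory EBF factors, or to GGCGCC, a motif bound by SMAD1 and SMAD5. Both motifs read the same on either strand, and their matches overlapped in 0 of the 74 member regions. The regions lie at chr11:85501697-85501946 and chr11:85801508-85801757 for Fgf12, chr17:62009744-62009993 for Fzd8, chr4:30264824-30265073 for Fzd1 and chr5:154797200-154797449 for Wnt4, all on the plus strand, and at chr1:194280915-194281164 on the minus strand for Fgfr2.
Fgf12, first start: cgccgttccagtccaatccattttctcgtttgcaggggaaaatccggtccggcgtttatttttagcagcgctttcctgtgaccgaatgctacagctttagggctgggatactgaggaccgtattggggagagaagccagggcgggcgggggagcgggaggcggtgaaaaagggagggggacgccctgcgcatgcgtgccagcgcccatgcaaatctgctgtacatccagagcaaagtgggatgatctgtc
Fgf12, second start: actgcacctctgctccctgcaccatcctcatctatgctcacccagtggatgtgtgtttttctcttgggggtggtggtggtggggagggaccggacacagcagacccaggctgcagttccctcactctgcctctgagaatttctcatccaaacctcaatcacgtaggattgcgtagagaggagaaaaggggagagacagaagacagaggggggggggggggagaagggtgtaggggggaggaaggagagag
Fzd8: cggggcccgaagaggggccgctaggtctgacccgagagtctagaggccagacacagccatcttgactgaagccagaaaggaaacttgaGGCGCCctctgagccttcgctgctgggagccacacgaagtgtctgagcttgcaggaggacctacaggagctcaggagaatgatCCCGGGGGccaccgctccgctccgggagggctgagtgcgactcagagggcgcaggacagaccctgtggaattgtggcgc
Fzd1: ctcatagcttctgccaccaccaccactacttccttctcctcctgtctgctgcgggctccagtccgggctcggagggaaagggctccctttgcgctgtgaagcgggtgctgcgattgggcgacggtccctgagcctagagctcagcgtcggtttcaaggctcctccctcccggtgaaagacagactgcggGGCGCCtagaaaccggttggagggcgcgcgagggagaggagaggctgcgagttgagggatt
Wnt4: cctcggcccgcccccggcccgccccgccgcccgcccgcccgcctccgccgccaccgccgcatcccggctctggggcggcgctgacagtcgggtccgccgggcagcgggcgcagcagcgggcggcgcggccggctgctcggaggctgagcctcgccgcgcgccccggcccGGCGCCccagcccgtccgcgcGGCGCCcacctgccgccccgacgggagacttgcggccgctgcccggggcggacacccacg
Fgfr2: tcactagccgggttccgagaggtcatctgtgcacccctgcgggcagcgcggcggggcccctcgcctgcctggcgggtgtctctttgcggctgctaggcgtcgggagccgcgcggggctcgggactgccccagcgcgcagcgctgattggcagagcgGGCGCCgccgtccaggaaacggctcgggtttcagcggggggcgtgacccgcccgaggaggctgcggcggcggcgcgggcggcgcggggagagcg

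In the Fzd8 region the CCCNNGGG match began 79 bases before the start and the GGCGCC match 162 bases before it. Wnt4 carried 2 GGCGCC matches, which began 81 and 60 bases before its start. Both Fgf12 regions were without a match. Over all 74 member regions GGCGCC was found in 29.7%, against 8.69% of the 33469 upstream regions of the table, and CCCNNGGG in 21.6% against 10.8%. G and C made up 63.2% of the bases of the member regions and 52.3% of all regions. The SMAD palindrome GTCTAGAC was found in 0 member regions and in 0.173% of all regions, and the TCF/LEF motif ATCAAAG, searched on both strands, in 2.7% of member regions and 3.15% of all. Among members called higher in male olfactory tissue (limma, adjusted p under 0.05) 2 of 10 regions held CCCNNGGG and 1 held GGCGCC, and among members called lower 3 and 5 of 13 regions did.

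Signals are linear brightness values as deposited, and levels are given on the log2 scale after adding 16. A probe set was taken as above background on an array where it exceeded the 95th percentile over the 27 probe sets for bacterial controls, which lay at log2 5.47 to 6.34. By this rule 89 of the 90 genes were above background on at least 1 array, and Acvr1c, an activin-type receptor, was above it on none. The olfactory marker protein gene Omp, which defines mature olfactory neurons, had log2 levels of 14.38 to 14.72 in male and 14.65 to 14.67 in female olfactory arrays. It was also present in the respiratory arrays, at 9.70 to 12.39 in males and 10.49 to 13.23 in females. The RNA integrity numbers of the labels, given for 17 arrays, were 8.2 to 8.8 in male olfactory, 9.1 to 9.3 in male respiratory, 8.3 in both female olfactory and 8.7 to 9.3 in female respiratory samples. They did not overlap between the tissues in either sex. On the second principal component of all probe sets, female respiratory array 8 lay at -113.3 and male respiratory array 7 at -97.5. The other 10 respiratory arrays lay at -5.44 to 32.6. Olfactory arrays were spread on it too, from -68.1 (array 10) to 84.4 (array 2) in males and at -30.8 and -4.10 in females. Where 2 arrays are said below to stand apart, it is from the other respiratory arrays.

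In males, 12 of the 90 genes were higher and 18 lower in olfactory than in respiratory epithelium. A gene is called where limma's adjusted p, over all 31042 probe sets, was under 0.05. The called share was thus 33.3% of the members, near the background of 31.8% of all named genes (14.0% higher and 17.8% lower). The median log2 difference was -0.13 over the 90 members and -0.05 over all named genes. Among the 30 called genes, 21 differed by 2-fold or more, and 28 had the same sign in all 5 males that gave both tissues. The male arrays of the tissues did not overlap for 16 members, 7 higher and 9 lower, which is 17.8% of them against 17.8% of all named genes (7.54% higher and 10.2% lower). The Wnt genes with their receptors and inhibitors were called in 13 of 26 cases, the Fgf genes with their receptors and binding proteins in 10 of 29, and the Bmp, Tgfb and Smad genes in 5 of 28. These counts and those of single roles below rest on few genes beside the 31.8%, and are not read as traits. In tissue samples fewer cells of a type and less RNA per cell cannot be told apart.

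**Figure D1:**
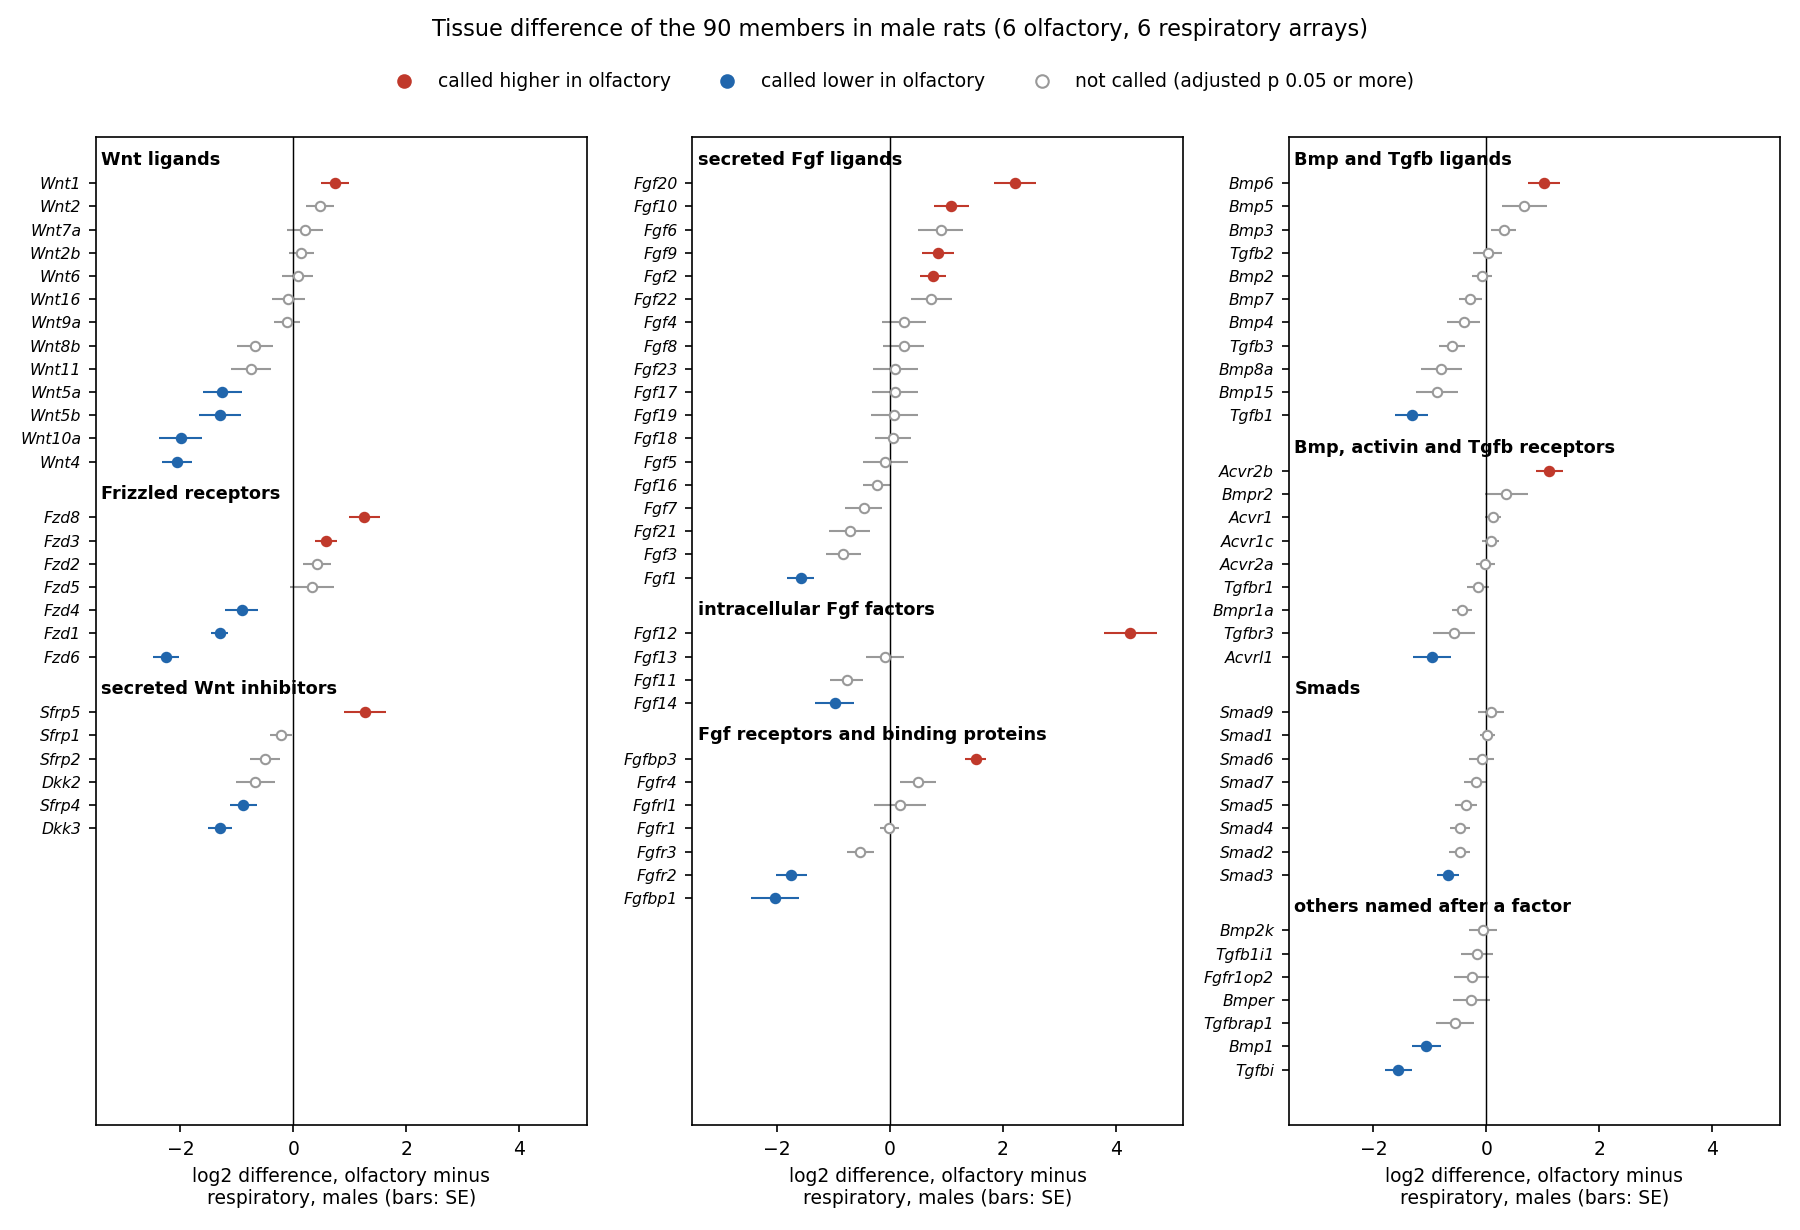
Log2 difference between olfactory and respiratory epithelium in males (x axis) for each of the 90 members (y axis, sorted within roles), with the standard error of the limma fit as bars, over 6 and 6 arrays. Filled red points are the 12 genes called higher and filled blue points the 18 called lower, open grey points the 60 not called. Fgf12 stands at 4.26 and Fzd6 at -2.26.

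Among the 13 Wnt ligands 1 was higher and 4 were lower in male olfactory epithelium, with Wnt4 and Wnt10a changing most. Wnt4, a ligand known from epithelial branching, had log2 levels of 7.68, 8.36 and 9.20 (lowest, median and highest) in the 6 male olfactory arrays and 9.82, 10.42 and 10.99 in the 6 male respiratory arrays. Every olfactory array was below every respiratory one, and the difference was -2.06 ± 0.27 (SE) with an adjusted p of 3.6e-06. In females Wnt4 was at 8.94 and 9.44 in the olfactory arrays and at 9.66, 10.47 and 10.91 in the respiratory arrays. These groups did not overlap either, with a difference of -1.21 ± 0.38 and an adjusted p of 0.0295, and without either female olfactory array the adjusted p was 0.252 or 0.0948. Without female respiratory array 6, 3 or 4 it was 0.0554, 0.0507 or 0.0521.

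Wnt10a, a ligand of epithelial appendages and teeth, was above background on 1 of 6 male olfactory and 5 of 6 male respiratory arrays. Its male levels were 4.38, 4.78 and 6.36 in olfactory and 5.59, 7.10 and 8.35 in respiratory tissue, and the ranges overlapped. The difference was -2.0 ± 0.38 with an adjusted p of 0.000327. In females it was above background on 0 of 2 olfactory and 6 of 6 respiratory arrays, so only a bound can be given: the respiratory level was at least 1.76-fold higher (fit difference -1.99, adjusted p 0.0118). Here and for other genes dim throughout 1 group, the bound sets the bright group's mean level against the mean background threshold of the dim group's arrays. It takes no account of the spread between arrays. Without female olfactory array 6 the adjusted p was 0.174.

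Wnt5a and Wnt5b, close relatives that act mainly on cell polarity and movement, were both called lower in male olfactory tissue. Wnt5a had levels of 4.47, 6.34 and 6.78 in male olfactory and 7.17, 7.27 and 7.84 in male respiratory arrays, which did not overlap, and the difference was -1.26 ± 0.34 (adjusted p 0.00858). Wnt5b had 4.44, 4.77 and 6.22 in olfactory and 5.79, 6.24 and 7.14 in respiratory arrays, overlapping, with a difference of -1.30 ± 0.37 (adjusted p 0.0108). It was above background on 2 and 5 of the 6 arrays. In females neither was called (adjusted p 0.125 and 0.690), and neither was above background on an olfactory array. Wnt5a was above background on 5 of 6 female respiratory arrays, whose mean was 1.78-fold the background of the olfactory arrays. Its female ranges overlapped, with 5.65 and 5.83 in olfactory against 5.69 to 7.35 in respiratory arrays. Of the 2 females that gave both tissues, 1 was higher in olfactory tissue. For Wnt5b, above background on 3 of 6 female respiratory arrays, no fold is given.

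Wnt1, best known as a signal of the developing midbrain, was the 1 ligand of the family called higher. Its levels were 7.25, 7.61 and 8.65 in male olfactory and 6.57, 7.07 and 7.36 in male respiratory arrays, with overlap and 4 of 5 animals higher. The difference of 0.74 ± 0.25 had an adjusted p of 0.0296, which rose above 0.05 without any 1 of male olfactory arrays 2 and 3 and male respiratory arrays 1, 2 and 8, to at most 0.0863. With the animal as a fixed block it was 0.068. The other 8 ligands, Wnt2, Wnt2b, Wnt6, Wnt7a, Wnt8b, Wnt9a, Wnt11 and Wnt16, were not called, with differences between -0.74 (Wnt11) and 0.47 (Wnt2).

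Frizzled genes, which encode the Wnt receptors, were called in 5 of 7 cases (71.4%, against 31.8% of all named genes). They went in both directions. Fzd6, a receptor of the polarity branch with a known part in hair follicle orientation, had levels of 6.53, 7.16 and 7.30 in male olfactory and 8.96, 9.32 and 9.66 in male respiratory arrays. The groups were separated by a wide gap, and the difference of -2.26 ± 0.24 had the lowest adjusted p of all members, 2.1e-07. In females its levels were 6.96 and 7.98 against 8.09, 9.17 and 9.49. Again no olfactory array reached a respiratory one, with a difference of -1.57 ± 0.33 (adjusted p 0.00211, and 0.143 without female olfactory array 6). Respiratory array 8 of the females was the lowest of its group.

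Fzd1, a receptor able to act through beta-catenin, was lower by less but with little spread. Male olfactory arrays had 8.55, 8.80 and 9.03 and male respiratory arrays 9.78, 10.06 and 10.33, and female arrays 8.53 and 8.94 against 9.60, 9.86 and 10.02. Neither sex showed overlap. The differences were -1.30 ± 0.15 (adjusted p 7.2e-07) in males and -1.12 ± 0.21 (adjusted p 0.000754, and 0.0521 without female olfactory array 6) in females. Fzd4, a receptor for Wnts and for norrin in blood vessels, fell by 0.92 ± 0.29 in males (5.97, 7.10 and 7.78 against 7.34, 8.09 and 8.43, overlapping). Its adjusted p of 0.0237 became 0.0639 without male olfactory array 10, passed 0.05 also without male respiratory array 2, and was 0.0587 with a fixed animal block. The gene's other probe set did not move with it, at 0.00.

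Fzd8 and Fzd3 were the 2 Frizzled genes higher in olfactory epithelium. Fzd8, a receptor that signals with Lrp coreceptors, had levels of 9.30, 9.64 and 10.45 in male olfactory and 8.12, 8.36 and 9.16 in male respiratory arrays. Females had 10.39 and 10.49 against 7.34, 8.34 and 9.10. No respiratory array came up to an olfactory one in either sex, with differences of 1.26 ± 0.27 (adjusted p 0.00129) in males and 2.21 ± 0.39 (adjusted p 0.000381) in females. Fzd3, a receptor known for axon guidance, had levels of 8.16, 8.75 and 8.94 against 7.68, 8.05 and 8.42 in males, with overlap. Its male difference of 0.58 ± 0.20 (adjusted p 0.0347) lost the call without male olfactory arrays 1, 2, 3 or 7 or male respiratory arrays 2, 3, 4 or 7, with adjusted p up to 0.0785. In females Fzd3 was at 8.51 and 9.23 against 7.56, 7.96 and 8.20, without overlap (0.95 ± 0.28, adjusted p 0.022, and 0.335 without female olfactory array 8). Fzd2 (0.42) and Fzd5 (0.33) were not called.

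The secreted Wnt modulators held 1 gene higher and 2 lower among 6. Dkk3, the divergent member of the dickkopf family, had levels of 7.89, 8.43 and 9.04 in male olfactory and 9.41, 9.74 and 10.00 in male respiratory arrays, and of 8.22 and 8.62 against 9.44, 9.89 and 10.65 in females. The tissues were apart in both sexes, by -1.30 ± 0.22 (adjusted p 7.5e-05) and -1.53 ± 0.30 (adjusted p 0.00119, and 0.0529 without female olfactory array 6). Its other 3 probe sets, which were dim, differed by -0.24 to 0.71 with no call, and the mean of all 4 moved by -0.20 in males and -0.33 in females (adjusted p 0.523 and 0.465).

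Sfrp4, a secreted Frizzled-related protein, had levels of 8.38, 8.71 and 9.05 in male olfactory and 8.53, 9.60 and 10.34 in male respiratory arrays. The ranges overlapped, 4 of 5 animals were lower in olfactory tissue, and the difference was -0.89 ± 0.24 (adjusted p 0.00732, and 0.0602 with a fixed animal block). In females it was at 8.40 and 8.45 against 9.30, 9.50 and 9.99, apart, with -1.17 ± 0.34 (adjusted p 0.018, and 0.118 or 0.129 without either olfactory array). Averaged with its other probe set, which differed by 0.08, Sfrp4 was at -0.41 in males and not called (adjusted p 0.243). Sfrp5, a relative of Sfrp4, went the other way, with 8.15, 8.98 and 9.67 against 6.72, 7.86 and 8.55 in males, overlapping, and 1.28 ± 0.37 (adjusted p 0.0135). With RNA integrity as a covariate its sign turned, to -0.14 (adjusted p 0.912). Sfrp1, Sfrp2 and Dkk2 were at -0.22, -0.50 and -0.67 and not called.

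Fgf12 had the largest tissue difference of the 90 members. It encodes one of the intracellular Fgf homologous factors, which are not secreted and modulate voltage-gated sodium channels of excitable cells. Its levels were 10.85, 11.30 and 12.22 in male olfactory and 6.27, 6.80 and 8.48 in male respiratory arrays, and 10.66 and 11.24 against 6.51, 8.29 and 9.86 in females. No respiratory array reached an olfactory one. The difference was 4.26 ± 0.47 in males (19.2-fold, adjusted p 4.4e-07) and 2.78 ± 0.67 in females (6.86-fold, adjusted p 0.00548, and 0.110 without female olfactory array 6). All 3 of its probe sets were called in males, at 2.82, 3.86 and 4.26.

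The other intracellular factors did not follow Fgf12. Fgf14 was called lower in males, with 4.34, 5.61 and 5.96 against 5.91, 6.30 and 6.57 and some overlap, at -0.98 ± 0.34 (adjusted p 0.0385). It was above background on 2 of 6 olfactory and 4 of 6 respiratory arrays, and its other probe set was at 0.20. The call was lost under quantile normalization (adjusted p 0.0553), with a fixed animal block (0.0675), and without any 1 of male olfactory arrays 3 and 7 and male respiratory arrays 1, 3, 4 and 8 (up to 0.103). Fgf11 was at -0.76 and Fgf13 at -0.08, neither called.

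Of the 18 secreted Fgf ligands 4 were higher and 1 was lower in male olfactory tissue. Fgf20, a ligand of the Fgf9 subfamily known from the inner ear and midbrain, had levels of 6.58, 7.51 and 8.17 in male olfactory and 4.47, 5.10 and 6.24 in male respiratory arrays, and of 7.45 and 7.52 against 4.66, 4.97 and 6.21 in females. Every olfactory array was above every respiratory array in both sexes, and in each sex only 1 of 6 respiratory arrays was above background. The differences were 2.22 ± 0.36 (adjusted p 6.7e-05) and 2.28 ± 0.52 (adjusted p 0.0035, and 0.0505 without female olfactory array 6).

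Fgf9, Fgf10 and Fgf2 were called higher in males by smaller amounts. Fgf9, a ligand best known for its part in testis and lung development, had 7.80, 8.98 and 9.69 against 7.00, 8.13 and 8.41, overlapping, at 0.86 ± 0.28 (adjusted p 0.0263). Both of its probe sets were called. The call was lost without male olfactory array 1, 2 or 3 or male respiratory array 7, with adjusted p up to 0.0744, and without both arrays that stood apart (0.0573). Fgf10, a ligand made by mesenchyme under epithelia, had 6.43, 6.75 and 7.26 against 4.26, 5.90 and 6.25, without overlap, and was above background on 2 of the 6 respiratory arrays, at 1.09 ± 0.32 (adjusted p 0.0122, and 0.0508 with a fixed animal block). In females Fgf10 differed by -0.02, with 6.17 and 6.83 against 6.08, 6.41 and 7.16. Fgf2, the basic fibroblast growth factor, had 6.71, 7.07 and 7.35 against 5.97, 6.35 and 6.52, without overlap, at 0.76 ± 0.24 (adjusted p 0.0188, and 0.105 with a fixed animal block).

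Fgf1, the acidic fibroblast growth factor that binds all Fgf receptors, was the secreted ligand lower in olfactory tissue. Its levels were 7.53, 8.16 and 8.56 in male olfactory and 8.68, 9.92 and 10.00 in male respiratory arrays, and 8.01 and 8.40 against 9.32, 9.97 and 10.50 in females. The tissues were apart in both sexes, at -1.58 ± 0.24 (adjusted p 2.6e-05) and -1.69 ± 0.34 (adjusted p 0.00131, 0.0529 without female olfactory array 6, and 0.0962 for the mean of its 3 probe sets). Fgf7, the keratinocyte growth factor of connective tissue, was the 1 member called in females and not in males. It was at 4.73 and 5.06 in female olfactory arrays, below background on both, and at 6.37, 6.82 and 7.16 in female respiratory arrays, so it was at least 1.72-fold higher in the respiratory arrays (fit difference -1.90, adjusted p 0.00567, and 0.0806 without female olfactory array 8). In males Fgf7 was at 4.95, 6.23 and 6.65 against 5.50, 6.52 and 6.86, at -0.46 (adjusted p 0.337). The difference between the sexes had an unadjusted p of 0.0179 and an adjusted p of 0.924. The remaining 12 ligands were not called in either sex, with male differences from -0.82 (Fgf3) to 0.90 (Fgf6).

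**Figure D2:**
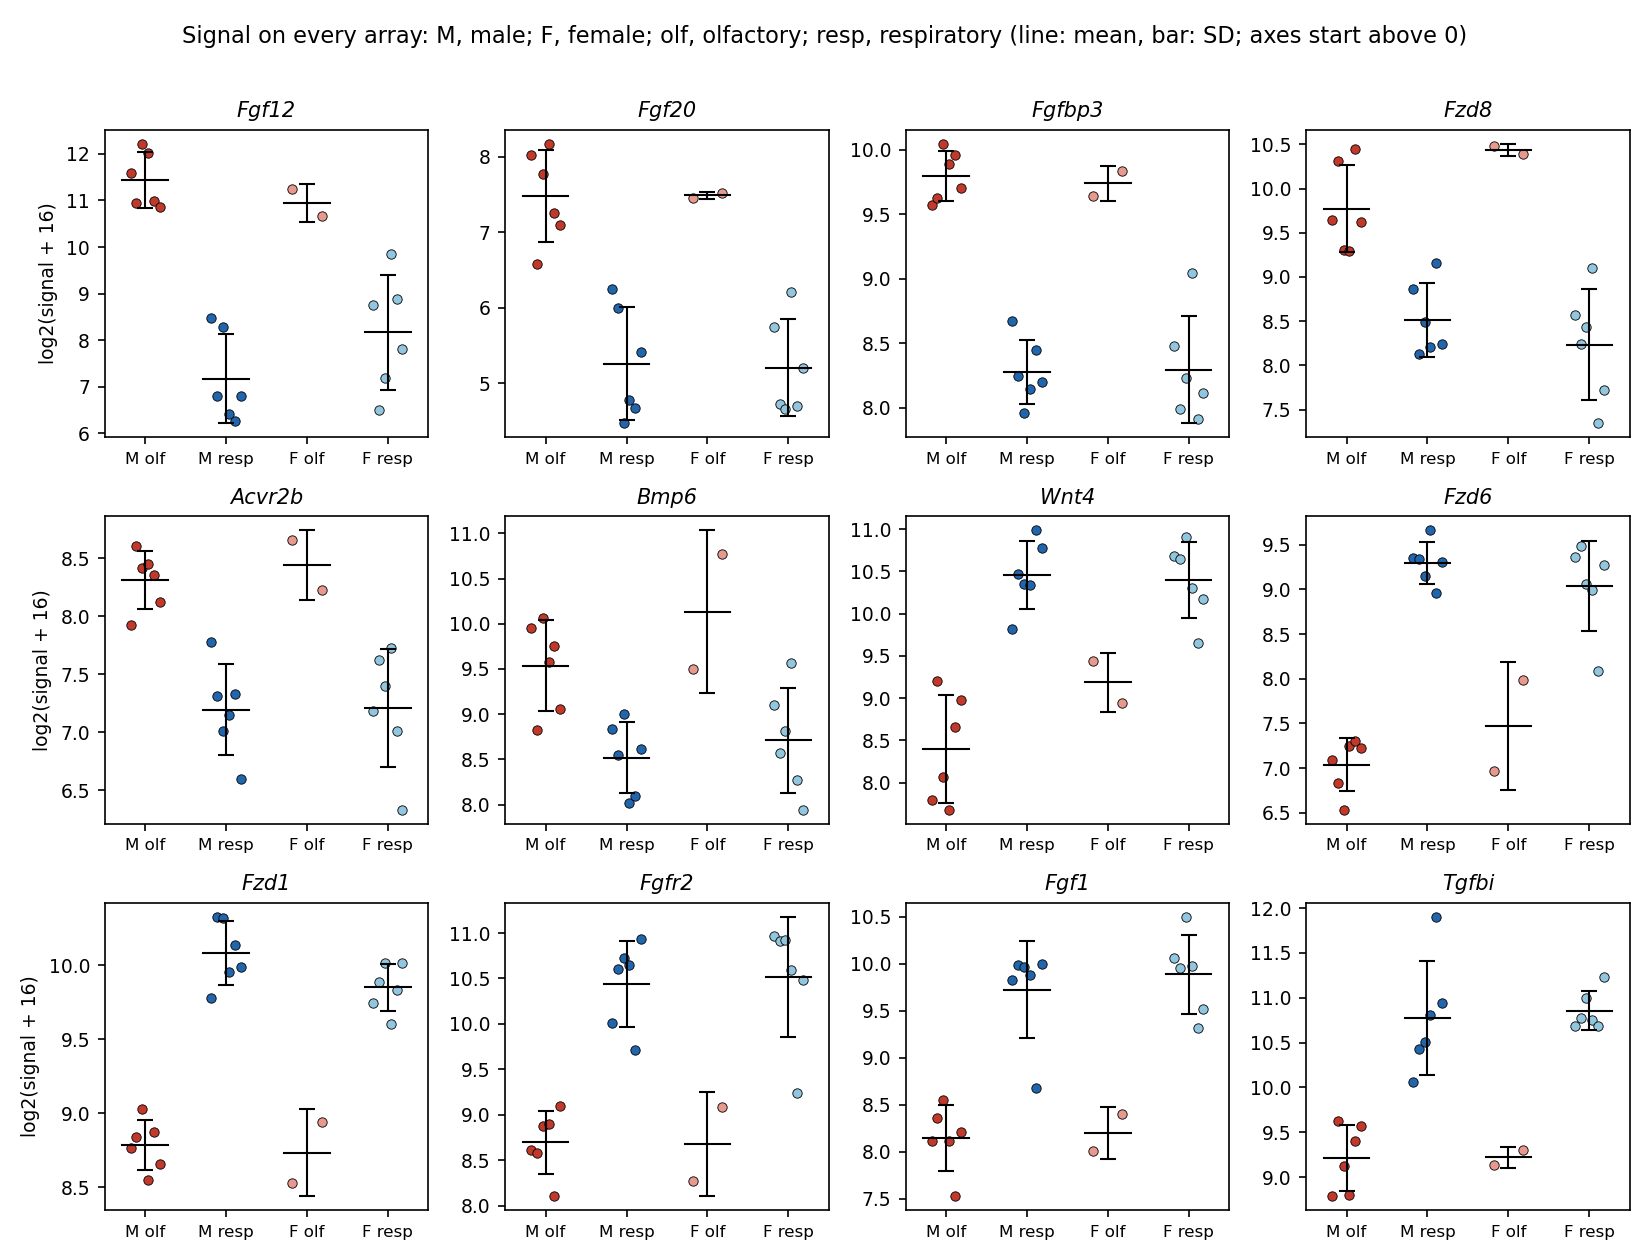
Log2(signal + 16) of 12 members (y axis, not starting at 0) on every array of the 4 groups, with the mean as a line and the SD as a bar. In Fgf12, Fgf20, Fgfbp3, Fzd8, Acvr2b, Wnt4, Fzd6, Fzd1, Fgfr2, Fgf1 and Tgfbi no olfactory point of a sex overlaps its respiratory points, and in Bmp6 they overlap in both sexes.

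Among the 7 Fgf receptors and carriers 1 gene was higher and 2 were lower. Fgfr2, the receptor that epithelia use for Fgf7 and Fgf10, had levels of 8.11, 8.74 and 9.10 in male olfactory and 9.71, 10.63 and 10.94 in male respiratory arrays, and of 8.27 and 9.08 against 9.24, 10.76 and 10.97 in females. The tissues did not overlap in either sex. The differences were -1.74 ± 0.27 (adjusted p 4e-05) and -1.84 ± 0.39 (adjusted p 0.00196, and 0.0997 without female olfactory array 6). All 5 Fgfr2 probe sets had negative differences in males, from -0.42 to -1.74, and 2 of them were called. Fgfr1 was at -0.01, Fgfr3 at -0.52, Fgfr4 at 0.51 and the decoy-like receptor Fgfrl1 at 0.18, and none was called.

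The binding proteins, secreted carriers that release Fgfs from heparan sulphate, went in opposite directions. Fgfbp3 had levels of 9.57, 9.80 and 10.05 in male olfactory and 7.96, 8.22 and 8.67 in male respiratory arrays, and of 9.65 and 9.84 against 7.91, 8.17 and 9.05 in females. Olfactory arrays lay close together and above all respiratory arrays, by 1.52 ± 0.19 (adjusted p 2.2e-06) and 1.45 ± 0.27 (adjusted p 0.000643). Fgfbp1, a carrier known from squamous and basal epithelia, had 6.02, 7.12 and 8.25 against 8.20, 9.38 and 9.72 in males, barely overlapping, at -2.04 ± 0.43 (adjusted p 0.000846). In females it had 7.91 and 8.70 against 7.78, 9.39 and 11.10, at -1.13 (adjusted p 0.209).

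Among 11 Bmp and Tgfb ligands 1 was higher and 1 lower in male olfactory tissue, 18.2% of them against 31.8% of all named genes. Bmp6, a ligand of the Smad1/5 branch, had levels of 8.82, 9.67 and 10.07 against 8.01, 8.58 and 9.01 in males and 9.50 and 10.77 against 7.94, 8.69 and 9.57 in females. The ranges overlapped slightly in each sex, with differences of 1.02 ± 0.29 (adjusted p 0.0103) and 1.42 ± 0.40 (adjusted p 0.0167, and 0.361 without female olfactory array 8). Averaged over its 4 probe sets, of which 2 were called, Bmp6 was at 0.57 in males (adjusted p 0.0545).

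Tgfb1, the growth inhibitor and matrix inducer of the family, had levels of 6.74, 7.31 and 8.05 against 7.92, 8.56 and 9.74 in males, with overlap, at -1.32 ± 0.29 (adjusted p 0.00145). In females it had 6.73 and 7.22 against 7.99, 8.11 and 9.04, without overlap, at -1.27 ± 0.41 (adjusted p 0.0348). That call was lost without either olfactory array (0.0861 or 0.313), without female respiratory array 9, which was the highest (0.0672), and under quantile normalization (0.121). The other 9 ligands, among them Bmp2, Bmp4, Bmp7, Tgfb2 and Tgfb3, ranged from -0.87 (Bmp15) to 0.67 (Bmp5) without a call.

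Of the 9 receptors of the family, Acvr2b was higher and Acvrl1 lower. Acvr2b, a type II receptor for activins and Gdf11, had levels of 7.92, 8.39 and 8.61 against 6.59, 7.23 and 7.78 in males and 8.23 and 8.65 against 6.33, 7.29 and 7.72 in females. Both sexes were without overlap, at 1.12 ± 0.25 (adjusted p 0.00145) and 1.23 ± 0.35 (adjusted p 0.0164, and 0.0537 or 0.225 without either female olfactory array). Acvrl1, a type I receptor of endothelium, had 5.17, 5.83 and 6.65 (above background on 3 of 6 arrays) against 5.74, 6.99 and 7.42 in males, overlapping, at -0.96 ± 0.34 (adjusted p 0.0399). Leaving out any 1 of 8 arrays (male olfactory 1, 4 and 7 and male respiratory 2, 3, 4, 7 and 8) ended the call, with adjusted p up to 0.0976, as did a fixed animal block (0.0505), quantile normalization (0.0525) and leaving out both arrays that stood apart (0.0556), and with RNA integrity as a covariate its sign turned, to 0.12 (adjusted p 0.930). Acvr1, Acvr2a, Bmpr1a, Bmpr2, Tgfbr1 and Tgfbr3 were not called, at -0.57 (Tgfbr3) to 0.36 (Bmpr2).

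Of the 8 Smad genes, which encode the intracellular transducers, 1 was called in males, 12.5% against 31.8% of all named genes. The 8 lay between -0.68 and 0.08. At an unadjusted p under 0.05 (limma) 3 of the 8 passed, beside 42.3% of all named genes. Smad3, which carries Tgfb and activin signals, had levels of 8.46, 8.64 and 9.12 against 9.07, 9.42 and 9.62, overlapping, at -0.68 ± 0.19 (adjusted p 0.0121), and both of its probe sets were called. In females it had 9.03 and 9.12 against 8.48, 9.57 and 9.70, at -0.30 (adjusted p 0.508). Smad2 and Smad4, the other transducer of that branch and the shared partner, were each at -0.47, not called (adjusted p 0.0683 and 0.0635). Smad2 passed the threshold under quantile normalization (adjusted p 0.0387), with age as a factor (0.0365), without male olfactory array 3 (0.0431) or male respiratory array 7 (0.0142), and without both arrays that stood apart (0.00653), and with RNA integrity as a covariate it was at 0.013 (0.987). Smad5 was at -0.37 and Smad1, Smad6, Smad7 and Smad9 between -0.19 and 0.08, also without a call.

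Of 7 further genes that carry a factor's name without being a ligand, receptor or Smad, 2 were lower. Tgfbi, an extracellular matrix protein induced by Tgfb, had levels of 8.79, 9.26 and 9.62 against 10.06, 10.66 and 11.91 in males and 9.14 and 9.30 against 10.68, 10.76 and 11.23 in females. The tissues were well apart in both sexes, at -1.56 ± 0.24 (adjusted p 2.5e-05) and -1.64 ± 0.33 (adjusted p 0.00149). Bmp1, a metalloprotease that processes procollagen, had 5.86, 7.28 and 7.53 against 7.92, 8.15 and 8.48 in males, without overlap, at -1.06 ± 0.25 (adjusted p 0.00268). In females it was at -0.23 (adjusted p 0.718), with 7.67 and 7.69 against 7.49, 8.02 and 8.22. Bmp2k, Bmper, Tgfb1i1, Tgfbrap1 and Fgfr1op2 were not called.

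The tissues differed in RNA integrity number, and the fit was repeated with it as a covariate on the 17 arrays that have one. Of the 30 male calls 12 remained (3 higher and 9 lower). The same 17 arrays without the covariate kept 22 of the 30, so 8 of the 18 lost calls (Wnt1, Wnt5b, Fzd3, Fgf9, Fgf14, Bmp6, Acvrl1 and Smad3) were lost on these arrays without it as well. Fgf12, Fgf20, Fgfbp3, Wnt4, Wnt10a, Fzd1, Fzd6, Sfrp4, Fgf1, Fgfbp1, Tgfb1 and Tgfbi were the 12, with adjusted p of 0.00316 to 0.0425. The other 18 had adjusted p of 0.0582 (Fgfr2) to 0.930 (Acvrl1), among them Fzd8 (1.20, adjusted p 0.143), Acvr2b (1.43, adjusted p 0.0669), Dkk3 (-0.99, adjusted p 0.125) and Bmp6 (1.10, adjusted p 0.279). In 8 of these 18 the difference was as large with the covariate or larger, in 8 it was smaller with the same sign, and in Sfrp5 and Acvrl1 the sign turned. The median standard error over the 30 genes was 0.274 in the fit of all arrays, 0.299 on the 17 arrays and 0.473 with the covariate. The fit held a mean for each combination of sex and tissue, so the covariate was fitted only through the spread within these groups. Within each sex the number did not overlap between the tissues, and the part of RNA integrity in the differences was not tested beyond this fit. Of the 30 male calls, 24 held without any single male array and 11 held under every alternative run: the 12 above without Sfrp4.

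In females 7 members were higher and 11 lower in olfactory epithelium, 18 of 90, against a background of 22.5% of named genes (10.9% higher and 11.6% lower). This comparison rests on 2 olfactory arrays. Of the 18, 17 were also called in males, all in the same direction (7 higher and 10 lower), which is 56.7% of the male list and 94.4% of the female list. Of the 30 male calls, 29 had the same sign in females, and Fgf10 was the exception. Some of the 29 were small in females, such as Fgf9 (0.17), Wnt1 (0.23) and Bmp1 (-0.23). Sfrp5, at 0.88 in females, was not called there (limma, adjusted p 0.274). No matching share over all named genes was worked out for these overlaps, so they are not read as a trait of the members. Without female olfactory array 6 the female count fell to 6, and with RNA integrity as a covariate to 5: Fgf1, Fzd8, Sfrp4, Tgfbi and Wnt10a.

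**Figure D3:**
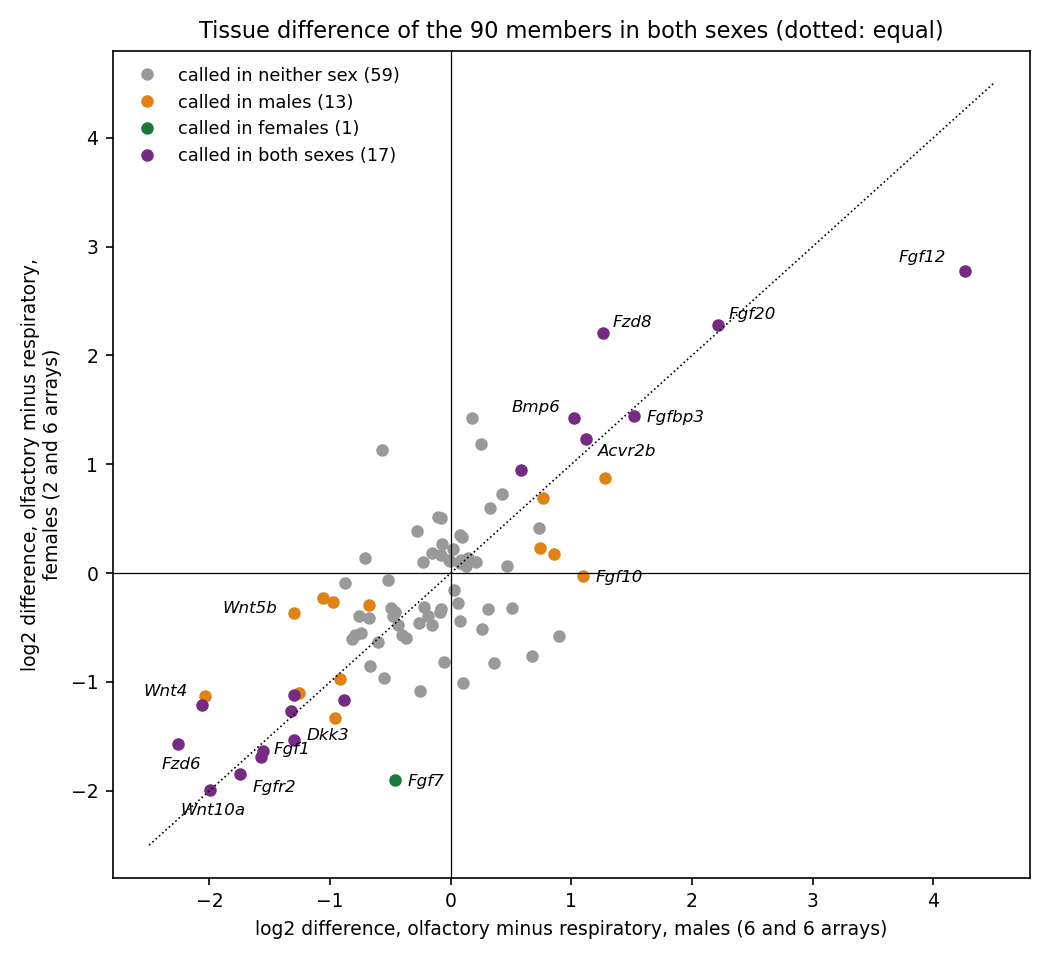
Log2 difference between olfactory and respiratory epithelium in males (x axis, 6 and 6 arrays) and females (y axis, 2 and 6 arrays) for the 90 members, with a dotted line of equal differences. The 17 members called in both sexes (purple) lie at the lower left and upper right, 13 were called in males alone (orange) and Fgf7 in females alone (green).

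No member was called between the sexes by limma, where the background was 0.0141% of named genes in respiratory and 0.0211% in olfactory tissue, nor in the sex by tissue interaction, where it was 0.0%. At an unadjusted p under 0.05 there were 3 members (3.33%) in respiratory tissue, 4 (4.44%) in olfactory tissue and 3 (3.33%) in the interaction. The shares of all named genes at that level were 3.57%, 3.91% and 3.82%, near those of the members. In respiratory tissue these were Fgf10 (female minus male 0.84), Fgf12 (0.99) and Tgfbr3 (-0.99), the last an accessory receptor for Tgfb. In olfactory tissue they were Wnt4 (0.79), Bmp3 (-0.97, above background on 1 of 2 female arrays), and Fgf6 and Fgf7, for which no size is given because neither was above background on a female olfactory array. The lowest adjusted p was 0.670.

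Other genes of the pathways came from lists drawn up by pathway, like the 90 genes with earlier results of these data known. They were called in males at rates from 23.8% to 60% by list, against 31.8% of all named genes. Wnt transduction and polarity genes (26.5%), antagonists and Tgfb carriers (23.8%) and coreceptors and Smad regulators (33.3%) were near or below that share. Of 17 Wnt receptors and handling genes 2 were higher and 6 lower, led by the inhibitor Wif1 (-1.61), the R-spondin receptor Lgr6 (-1.55) and Porcn (1.49), which attaches lipid to Wnts. Of 34 Wnt transduction and polarity genes 5 were higher and 4 lower, led by Apc2 (2.44) of the beta-catenin destruction complex, the transcription factor Tcf7 (-1.41) and the polarity cadherin Celsr3 (1.36). Of 25 Fgf cofactors and feedback genes 9 were higher and 6 lower, led by the membrane protein Flrt1 (2.75) and the heparan sulphate carriers Sdc3 (2.72) and Sdc1 (-2.32).

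Of 12 other ligands of the Tgfb superfamily 2 were higher and 3 lower, led by Gdf11 (3.30), a ligand of Acvr2b that restrains olfactory neurogenesis, Inhbb (-2.17), an activin subunit, and Gdf15 (-1.75). Among 21 secreted antagonists and Tgfb carriers 0 were higher and 5 lower, led by the latent Tgfb binding protein Ltbp1 (-1.45), the proteoglycan Dcn (-1.37) and Ltbp4 (-1.30). Of 18 coreceptors and Smad regulators 2 were higher and 4 lower, with the endothelial coreceptor Eng (-1.34), the ubiquitin ligase Nedd4l (-1.11) and the corepressor Tgif1 (-0.90) in the lead. Of 15 Tgfb and Bmp target genes, 3 of them members, 3 were higher and 5 lower, led by the inhibitor of basic helix-loop-helix factors Id4 (2.41), the homeobox gene Msx2 (1.70) and Tgfbi. With RNA integrity as a covariate 8 of the genes named from these lists were no longer called. Of these, Tcf7 (-1.46), Gdf15 (-2.31), Ltbp4 (-1.49), Tgif1 (-1.01) and Msx2 (1.77) had differences as large as before, and Lgr6 (-1.16), Porcn (0.98) and Nedd4l (-0.57) smaller ones. The 8 had adjusted p of 0.0856 (Gdf15) to 0.542 (Nedd4l). In male rats aged 11 weeks alone Tcf7 and Gdf15 also lost the call (adjusted p 0.0527 and 0.063). In females Wif1, Lgr6, Tcf7, Gdf15, Ltbp4, Tgif1 and Nedd4l were not called, with limma's adjusted p from 0.0503 (Nedd4l) to 0.868 (Ltbp4).

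Markers of the cell types that the samples could hold moved with the tissue as well. In males 8 of 9 mature olfactory neuron markers and 12 of 13 of immature neurons and globose basal cells were higher in olfactory samples and none lower. Of 8 basal cell markers 7 were lower, of 13 fibroblast and connective tissue markers 10 were lower and 1 higher, and of 11 leukocyte markers 9 were lower. Of all named genes 14.0% were called higher and 17.8% lower. The summed signal of the mature neuron list had log2 values of 16.02 to 16.23 in male olfactory and 11.60 to 13.62 in male respiratory arrays, and of 16.26 to 16.28 against 12.06 to 14.67 in females. The basal list had 12.45 to 13.78 against 14.56 to 16.27 in males and 12.98 to 13.46 against 14.89 to 15.53 in females. The fibroblast list had 13.97 to 14.78 against 14.87 to 15.77 and 14.07 to 14.09 against 14.76 to 15.54, and the leukocyte list 12.61 to 13.59 against 14.89 to 15.87 and 12.77 to 13.21 against 14.39 to 15.93. Of the other lists, counted as higher and lower in male olfactory tissue, sustentacular cells had 4 and 2 of 8, glia 5 and 1 of 9, ciliated cells 1 and 1 of 6, secretory cells 0 and 6 of 11, squamous cells 0 and 5 of 7, bone and cartilage 0 and 2 of 10, and endothelium and mural cells 1 and 5 of 12. The part of these cell types in the members' differences was not tested.

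Among the 12 respiratory arrays the level of Omp varied, and the 12 members higher in male olfactory tissue were set against it. These members had been picked for being higher in the tissue where Omp is high. No share over all named genes was worked out, so the values only describe the 12. The permutations mixed the sexes, although the median of Omp was 10.26 in male and 11.37 in female respiratory arrays. Fgfbp3 had a Pearson r of 0.852 with Omp (permutation p 0.00036, 0.00432 adjusted over the 12 members by Benjamini-Hochberg) and a Spearman rho of 0.706 (permutation p 0.0129, adjusted 0.154). Its r was 0.966 within the 6 male and 0.958 within the 6 female arrays, 0.726 without the 2 arrays farthest from the median of Omp, and 0.878 without the 2 arrays that stood apart. Fgf12 had an r of 0.596 (permutation p 0.0421, adjusted 0.172) and a rho of 0.510 (permutation p 0.0937, adjusted 0.281). Its r was 0.229 within the male and 0.713 within the female arrays, 0.761 without the 2 arrays that stood apart, and 0.206 without the 2 farthest arrays, where the relation no longer held. The other 10 members had r between -0.249 (Fgf2) and 0.569 (Fgf20), none with an adjusted p under 0.05.

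**Figure D4:**
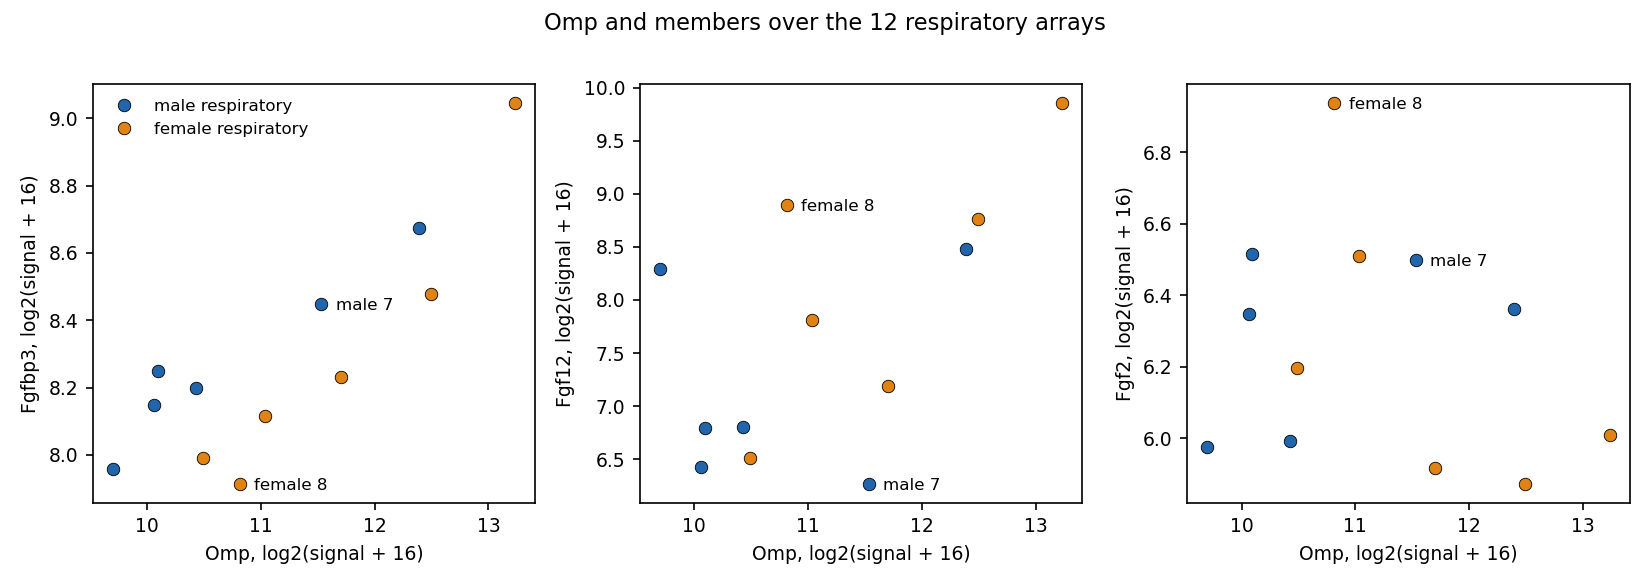
Log2(signal + 16) of Omp (x axes) and of Fgfbp3, Fgf12 and Fgf2 (y axes) on the 12 respiratory arrays, with male arrays in blue and female arrays in orange, and the 2 arrays that stood apart named. Fgfbp3 rises with Omp in both sexes (r 0.852), Fgf12 less closely (r 0.596), and Fgf2 does not (r -0.249).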

How the data were processed

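Total RNA of 20 nasal epithelium samples was hybridised to Rat230_2 arrays, with 1 array for a sample. The deposited values are a linear signal intensity per probe set, scaled by the authors so that the mean after trimming 2% at each end was 500.1 to 500.3 on every array. The submitters' processing notes name GCOS 1.0, and its algorithm is not given in the sources used here. Of 31099 probe sets 57 controls were left out. The 90 genes and all gene lists were chosen with earlier results of these data known. Signals were taken to log2 after adding 16, and a linear model with 1 term per combination of sex and tissue (4 groups, 20 arrays) was fitted in limma 3.58.1 (R 4.3.3), with an intensity trend, two-sided, and Benjamini-Hochberg adjustment over 31042 probe sets. The fitting steps were tested on simulated data.

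Samples of 1 animal were paired by the individual named in the labels. In the 7 animals with both tissues, the arrays' departures from their group means had correlations of -0.184 to 0.246, and the fit was run without and with the animal as a replicate block. The arrays are of separate animals within a group, and their number, above all the 2 female olfactory arrays, limits the precision. Genes described singly were the called members whose male groups did not overlap, the 2 members with the largest male difference in each role, members called in females alone, and the 3 called genes with the largest difference of each pathway list. The other called members are named as well, outside that rule, after their values were seen. Correlations with Omp used 100000 permutations and were added after seeing the data. Alternatives were other pseudocounts, quantile normalization, a filter on dim probe sets, the mean of all probe sets of a gene, no intensity trend, age, RNA integrity, animal blocks and leaving out arrays.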

Additional observations from a re-analysis of the deposited data

Results flagged for a closer look

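For 32 members, each of the 3 groups of 6 arrays was searched for an array far from the others of its group. The limit was a gap over 0.625 of the group's range, which about 1 in 20 groups of independent normal values pass. It was passed in 11 of 96 groups. The same arrays recur over the members, and no share over all named genes was worked out. The count is therefore not a result about the members. The levels are log2(signal + 16).

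Of the respiratory arrays that stood apart, female array 8 was low in Fgfr2 (9.24, others 10.48 to 10.97), Fzd6 (8.09, others 9.00 to 9.49) and Smad3 (8.48, others 9.25 to 9.70). Male array 7 was low in Fgf1 (8.68, others 9.83 to 10.00) and Fgf9 (7.00, others 8.01 to 8.40). Male respiratory array 8 was low in Fgf10 (4.26, others 5.56 to 6.25) and high in Wnt5a (7.84, others 7.17 to 7.35). Female respiratory array 7 was high in Fgf9 (8.69, others 7.96 to 8.19), and female respiratory array 9 was high in Tgfb1 (9.04, others 7.99 to 8.20). Among male olfactory arrays, array 3 was low in Bmp1 (5.86, others 7.10 to 7.53) and array 1 in Wnt5a (4.47, others 5.94 to 6.78). Both Wnt5a arrays widen the male difference.

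Wnt5b was lower in the olfactory tissue of all 5 males with both tissues (mean difference -1.32 within animals) and higher in that of both such females. For these females no size is given, because Wnt5b was above background on 0 of 2 female olfactory arrays. In the fit of all female arrays its difference was negative, as in males, and not called (limma, adjusted p 0.690). Over all arrays the interaction of sex and tissue had an adjusted p of 0.924, and the signals were near background.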

How the results depend on the processing

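The male count of 30 called members lay between 24 and 36 in 12 of 13 alternatives other than leaving out a single array, and fell to 12 (3 higher, 9 lower) with RNA integrity as a covariate. Leaving out each male array in turn gave 27 to 33 (9 to 13 higher, 16 to 22 lower). The animal as a random replicate block gave 31 and as a fixed replicate block 26; the fixed block lost Wnt1, Fzd4, Sfrp4, Fgf2, Fgf10, Fgf14 and Acvrl1 and no other call of the 30. Rats aged 11 weeks alone, with fewer arrays, gave 25 and lost Wnt5a, Wnt5b, Fzd4, Sfrp4, Sfrp5, Fgf2, Fgf10, Fgf14, Acvrl1 and Bmp1. The female count of 18 was 5 with RNA integrity as a covariate and 6 to 27 without each female array. That covariate turned the sign of Acvrl1 (0.12), Sfrp5 (-0.14) and the uncalled Smad2 (0.013); the cause was not tested. Called members numbered 0 between the sexes and in the interaction under every alternative run. Signals near background limit, among others, Wnt10a, Wnt5a, Wnt5b, Fgf7, Fgf10, Fgf14, Fgf20 and Acvrl1, whose lower levels may be bounds.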

Other observations

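Of the 90 genes 35 had several probe sets, and 0 of them had probe sets called in opposite directions in males. The probe set used was called in 11 of the 35, and in Fgf12, Fgf9 and Smad3 every probe set was called with it. In 2 genes the probe set used was not called while another was, both chosen here after their values were seen. Smad5, a transducer of Bmp signals, was at -0.37 (adjusted p 0.187) on the probe set used and at -0.87 (adjusted p 0.00135) on another. Tgfbr1, the type I receptor of Tgfb, was at -0.15 (adjusted p 0.629) and at -1.30 (adjusted p 0.0447).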
